A study of Mus musculus with 6 samples.

Results

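The genes that encode the receptors for glutamate and GABA were followed in single neurons of the mouse ventromedial hypothalamus. They were taken by symbol from the deposited tables, and 41 of the 21926 listed genes belonged to the set. Glutamate receptors gave 24 of them (4 AMPA, 7 NMDA, 5 kainate and 8 metabotropic receptor genes), and GABA receptors gave 17 (15 GABA-A and 2 GABA-B receptor genes). The cells came from 3 male and 3 female mice, all taken at P10, that is, at 10 days of age. All 6 carried Ai14f/+;Sf1-Cre, so no group lacked the reporter or the Cre. Ai14 is a reporter that turns on a red fluorescent protein after Cre has acted, and Sf1 is another name for Nr5a1, a transcription factor of this nucleus. A cell whose precursors once used Nr5a1 is therefore marked whether or not it still does. The hypothalamus was roughly dissected and dissociated with papain, cells were purified by fluorescence, and each mouse gave 1 plate of 96 wells with libraries of the BD Precise whole transcriptome kit. The sources used here do not state the gate of the sort.

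Glutamate is the main fast excitatory transmitter of the brain and GABA the main inhibitory one. AMPA, NMDA and kainate receptors are cation channels built of several subunits, and GABA-A receptors are chloride channels usually built of alpha, beta and gamma subunits. Metabotropic glutamate receptors and the GABA-B receptor instead act through G proteins. The subunits present set how fast a receptor opens and closes, which ions pass, and where in the cell it sits, and several subunits replace each other as the brain matures. Most neurons of the ventromedial hypothalamus themselves release glutamate and carry the vesicular transporter Slc17a6.

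Of 576 wells, 530 had 500 or more genes with a count and a mitochondrial share below 25%, and 516 of these were neuron-like (78, 85 and 86 in the females, 92, 83 and 92 in the males). A well was neuron-like if it had a count of at least 3 of 10 neuron genes and more counts of them than of all glial, vascular and ependymal genes listed. Each mouse is a separate animal by the labels, and cells of 1 mouse were summed before any test. The sums held 184278 to 782366 counts. Female 2 stood apart in depth, with a median of 2143 counts per neuron against 5536 to 7980 in the others. As a check of the labelled tissue, Nr5a1 and Fezf1, factors of this nucleus, together gave 163 to 328 CPM (counts scaled to a library total of 1000000) in the sums. Pomc, Tbx3 and Isl1, genes of the neighbouring arcuate nucleus, together gave 78.7 and 70.5 CPM in females 1 and 2, 1387 CPM in female 3, and 318, 994 and 491 CPM in males 1 to 3. The arcuate list was thus above the list of the labelled nucleus in 4 of 6 mice, and its part in the results was not tested. Neuron genes gave 10735 to 14356 CPM, while the 7 astrocyte genes gave 5.16 to 25.5 CPM. The Y-linked gene Eif2s3y had 16 to 44 counts in the males and 0 or 1 in the females, as the sex labels have it.

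A level below is the share of a mouse's summed neuron counts in CPM, and values are mean ± SD over the 6 mice. In such sums, fewer cells with a transcript and less RNA per cell cannot be told apart. Of the 41 genes, 39 had a count in at least 1 neuron, 27 reached a mean of 20 CPM, and 6 had fewer than 20 counts over all mice. Gabra6, an alpha subunit known from cerebellar granule cells, and Grm6, a receptor of retinal bipolar cells, had no count in 516 neurons, which allows a share of up to 0.712% of neurons with a count (exact interval, counting error only). The 41 genes together made up 2433 ± 259 CPM. Glutamate receptor genes held 50.1% ± 3.83 of that sum, so both transmitters' receptors were about equally represented in counts.

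**Figure D1:**
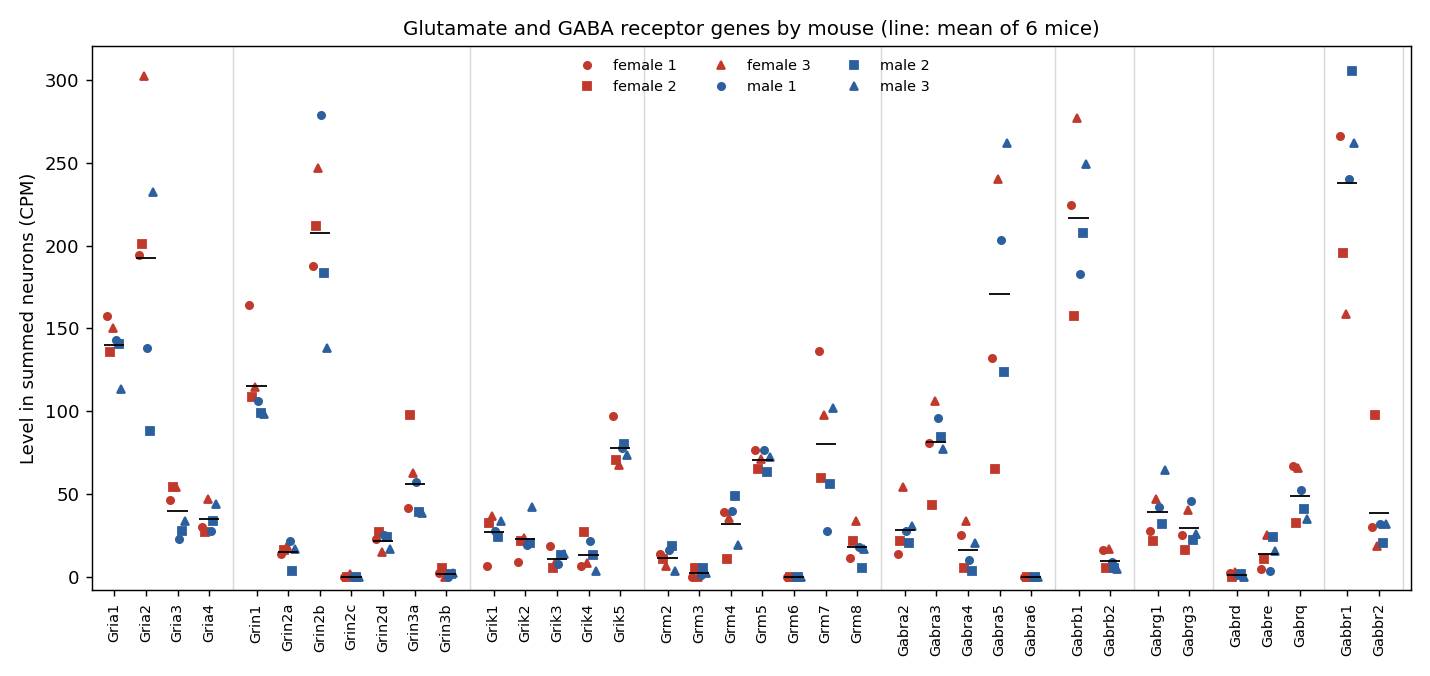
Level of the receptor genes reported here in the summed neurons of each mouse, in CPM on a linear axis, grouped by receptor class. Points are mice, with females in red and males in blue, and the line is the mean of the 6 mice. Gabbr1, Gabrb1, Grin2b, Gria2 and Gabra5 have the highest means, and Gabra6 and Grm6 lie at 0.

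The AMPA receptor genes came first among the fast excitatory receptors. Gria2, whose edited subunit keeps calcium out of the channel, stood at 195, 201 and 302 CPM in females 1 to 3 and at 138, 88.0 and 232 CPM in males 1 to 3. Gria1, a subunit known for its movement into synapses during plasticity, was more even, with 157, 136 and 150.4 CPM in the females and 143, 140.4 and 114 CPM in the males. Gria2 was the higher of the pair in 4 of 6 mice on the CPM scale, the exceptions being males 1 and 2. Scaled to 1 kilobase of merged exons, Gria1 was the higher in 6 of 6 mice (23.2 ± 2.499 against 12.4 ± 4.78 CPM per kb), because the annotated exons of Gria2 are longer. Gria3 and Gria4, the remaining AMPA subunits, had 39.9 ± 13.5 and 35.0 ± 8.55 CPM. Whether longer transcripts yield more counts in these libraries is not stated in the sources used here, so the order of Gria1 and Gria2 holds only on a named scale.

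Among the NMDA receptor genes the obligatory subunit gene Grin1 and the subunit gene Grin2b dominated. Grin2b, the partner that prevails early in life, had 188, 212 and 247 CPM in the females and 279, 183 and 138 CPM in the males. Its relative Grin2a, which is known to rise as synapses mature, had 13.9, 16.3 and 18.6 CPM in the females and 21.7, 3.74 and 16.8 CPM in the males. Every mouse therefore had more Grin2b than Grin2a, and the ranges did not overlap. Per kilobase, Grin2b stood at 8.36 ± 2.00 and Grin2a at 0.846 ± 0.344 CPM per kb. Grin1 had 115 ± 24.9 CPM, with female 1 the highest at 164 CPM. Grin1 lay below Grin2b in 6 of 6 mice in CPM and above it in 5 of 6 mice per kilobase (11.9 ± 2.57 CPM per kb). Exons of Grin1 share 13.5% of their length with the antisense gene Grin1os, and the sources used here do not give the strand of counting, so reads of the 2 genes may have been mixed. The glycine-binding subunit gene Grin3a had 56.2 ± 22.6 CPM, highest in female 2 at 97.7 CPM. Grin2d, a slowly closing subunit, had 22.0 ± 4.88 CPM and shares 9.66% of its exon length with an antisense gene. Grin2c and Grin3b had 1 and 5 counts in all neurons.

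Kainate receptors were represented mostly by Grik5, a high-affinity subunit that needs a partner from Grik1 to Grik3. Its level was 77.9 ± 10.6 CPM, from 67.6 CPM in female 3 to 97.3 CPM in female 1, against 27.1 ± 10.8 CPM for Grik1 and 22.8 ± 10.9 CPM for Grik2. Grik5 led in 6 of 6 mice on both scales. Grik4 and Grik3 were under 20 CPM, and neighbours below Grik5 overlapped between mice.

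Grm7 and Grm5 led the metabotropic glutamate receptors. Grm7, a presynaptic receptor that lowers release, had 137, 59.7 and 98.0 CPM in the females and 28.1, 56.2 and 102 CPM in the males. Grm5, a postsynaptic receptor that releases calcium from stores, varied little, at 63.7 to 76.7 CPM. These 2 genes overlapped, since Grm7 was the higher in 3 of 6 mice in CPM and in 5 of 6 per kilobase. Grm4, another presynaptic receptor, had 32.2 ± 14.2 CPM. Grm8 and Grm2 lay under 20 CPM, and Grm3 had 7 counts in 7 of 516 neurons.

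The GABA-A receptor genes other than Gabrd, which lies alone on chromosome 4, are arranged in clusters on 4 chromosomes (mm10; gene positions from GENCODE vM21). The chromosome 7 cluster includes Gabrg3 (56716465 to 57387188) and Gabra5 (57407672 to 57510059), both on the minus strand. The chromosome 5 cluster holds Gabrg1, Gabra2, Gabra4 and Gabrb1, of which Gabrb1 (71658113 to 72149037) was by far the highest in CPM. Gabra6 and Gabrb2 lie on chromosome 11, and Gabre, Gabra3 and Gabrq on chromosome X. Neighbouring genes differed in level, as in the pair of Gabrb1 at 15.6 and Gabra4 at 2.72 CPM per kb on chromosome 5.

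The sequences upstream of Gabra5 and Gabrb1, the alpha and the beta subunit gene with the most counts, are shown because Gabra5 was the receptor gene that passed the edgeR test between neurons with and without a marker, for 3 markers. None of these 3 calls held in DESeq2 or without mouse in the model, and that for Nr5a1 was lost on leaving out any of the 6 mice. Each is the 250 bases before an annotated start (RefSeq, GRCm38.p6), written 5′ to 3′ on the strand of the gene, with CG dinucleotides in capitals. The window of Gabra5 lies at chr7:57510060-57510309 on the minus strand and holds 9 CG dinucleotides. The window of Gabrb1 lies at chr5:71699682-71699931 on the plus strand, before a start inside the gene body that is 1 of 2 listed, and holds 6. The other listed window of Gabrb1, at chr5:71657671-71657920 on the plus strand, holds 18 and is not shown.
Gabra5: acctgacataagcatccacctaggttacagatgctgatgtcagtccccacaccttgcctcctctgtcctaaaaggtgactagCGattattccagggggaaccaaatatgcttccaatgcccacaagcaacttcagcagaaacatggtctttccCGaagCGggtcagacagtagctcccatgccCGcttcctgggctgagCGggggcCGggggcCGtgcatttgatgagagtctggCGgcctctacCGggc
Gabrb1: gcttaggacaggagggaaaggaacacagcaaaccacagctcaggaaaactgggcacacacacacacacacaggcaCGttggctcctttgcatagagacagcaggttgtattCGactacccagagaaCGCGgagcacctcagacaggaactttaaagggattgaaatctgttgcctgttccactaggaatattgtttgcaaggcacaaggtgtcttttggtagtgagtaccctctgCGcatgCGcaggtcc
The letters AAGGTCA, which Nr5a1 is known to bind, were searched on both strands of the 250 bases. They were in neither of the windows shown. Upstream entries, 35 in number, were found for 28 of the 41 genes, and 1 of these entries, that of Grin2c, held the motif, against 4.08% of all 32851 entries. A match or its absence describes only these letters in these windows.

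Gabra5 encodes an alpha subunit known for receptors outside synapses that carry tonic inhibition. Its level was 132, 65.1 and 239.96 CPM in females 1 to 3 and 203, 124 and 262 CPM in males 1 to 3. Female 3 and male 3 were the highest and female 2 the lowest, so the spread was as wide within each sex as between them. Gabra5 was above every other alpha gene in mean level and per kilobase (57.5 ± 25.6 CPM per kb, the highest of all 41 genes). Gabra3, an alpha subunit prominent before and around birth, followed with 81.4 ± 21.5 CPM and lay below Gabra5 in 6 of 6 mice on both scales. Gabra2 had 28.2 ± 14.0 CPM, and Gabra4 had 16.6 ± 12.01 CPM.

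Gabrb1, a beta subunit that forms part of the GABA binding site, had 225, 157 and 277 CPM in the females and 183, 208 and 249 CPM in the males. Female 2 was the lowest and female 3 the highest, and the sexes overlapped. Per kilobase it stood at 15.6 ± 3.15 CPM per kb. Gabrb2, which is abundant in adult cortex, had 32 counts and 9.71 ± 5.48 CPM. The gamma subunit genes Gabrg1 and Gabrg3 had 39.2 ± 15.5 and 29.4 ± 11.4 CPM, and Gabrg1 was the higher per kilobase in 6 of 6 mice (4.99 ± 1.97 against 2.47 ± 0.955 CPM per kb). The theta subunit gene Gabrq had 49.0 ± 15.2 CPM, the epsilon subunit gene Gabre had 14.1 ± 9.37 CPM, and the delta subunit gene Gabrd had 5 counts in all neurons.

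The GABA-B receptor needs both of its subunits, Gabbr1 to bind GABA and Gabbr2 to bring the pair to the surface and reach the G protein. Gabbr1 had the highest mean CPM of all 41 genes, with 266, 195 and 159 CPM in the females and 240.3, 305 and 262 CPM in the males. Gabbr2 had 30.1, 97.7 and 18.6 CPM in the females and 31.95, 20.6 and 32.3 CPM in the males. The ranges did not overlap, and Gabbr1 led in 6 of 6 mice on both scales. Over the 9 receptor classes, 13 of 32 neighbouring pairs in the order per kilobase kept their order in 6 of 6 mice, which is the smallest exact two-sided sign-flip p of 0.03125. After Benjamini-Hochberg adjustment over the 32 pairs none passed (smallest adjusted p = 0.0769), so the finer order is a description.

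**Figure D2:**
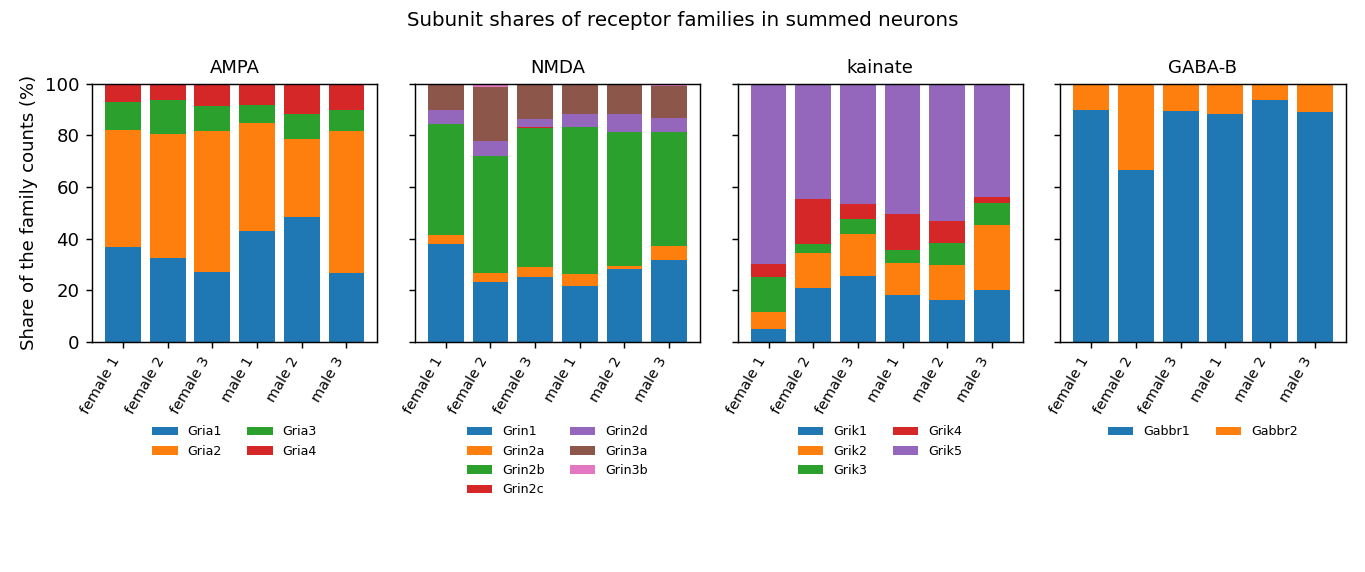
Share of each subunit gene in the summed counts of its receptor family, in percent, for 4 families and the 6 mice. Each stacked bar adds up to the whole family. Gabbr2 takes 33.3% of the GABA-B counts in female 2 and 6.32% to 11.7% in the other mice, and Grik5 takes 70.0% of the kainate counts in female 1 and 43.8% to 53.1% in the others.

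The shares of counts within a family varied between mice in some families and little in others. Grm7 held 14.3% of the metabotropic counts in male 1 (exact 95% interval 9.17% to 20.8%) and 45.4% in female 1 (36.6% to 54.3%). Gria1 held 26.8% and 27.1% of the AMPA counts in male 3 and female 3 and 48.4% in male 2. Gabre ran from 6.25% to 36.1% of the summed delta, epsilon and theta counts, which were 8 to 56 in a mouse. Gabrb1 held 64.7% to 76.0% of the beta counts. Gabra5 held 42.5% to 58.5% of the alpha counts in 5 mice and 26.1% in female 2. Female 2 also had 18 of 54 GABA-B counts in Gabbr2 (33.3%, exact 95% interval 21.1% to 47.5%), against 6.32% to 11.7% elsewhere. Female 2 was the library with the fewest counts, and whether its depth bears on these shares was not tested.

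Per neuron, the receptor genes were counted sparsely. The median neuron had a count of 10, 4 and 11 of the 41 genes in females 1 to 3 and of 10, 9 and 12 in males 1 to 3. Males and females overlapped (exact permutation test over mice, two-sided p = 0.7, smallest possible p = 0.1). With every neuron thinned to 2189 counts, which left out 52 shallower neurons, 47 of them from female 2, the medians were 5, 3.5 and 5 in the females and 4 in each male. The mean of the males went from 2 genes above to 0.5 genes below that of the females after thinning. Gabbr1 had a count in 70.7% of all neurons (exact 95% interval 66.6% to 74.6%), Grin2b in 64.9%, Gabrb1 in 61.8%, Gria2 in 59.3% and Gabra5 in 53.1%. In thinned neurons these shares fell to 38.7%, 35.1%, 35.7%, 32.5% and 27.5% as means over mice. A count of an alpha, a beta and a gamma gene in the same neuron was found in 45.9% ± 21.5 of neurons unthinned and in 10.2% ± 4.24 thinned, so the absence of a partner from a cell was not detectable at this depth. In the 14 kept wells that were not neuron-like, at a median of 888 counts against 6046 in neurons, Gabbr1 and Gria2 each had a count in 2 wells.

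Pairs of subunits were compared in the 464 thinned neurons. Gabrb1 had a count in 41.2% of neurons with Gabra5 and in 35.4% of those without. Gabra5 had a count in 39.7% of neurons with Gabra3 and in 27.4% of those without. Gria2 was found in 32.04% of neurons with Gria1 and in 32.4% of those without, and Grin2b in 35.2% with Grin1 and 34.5% without. These shares describe cells pooled over mice that differ in level, and they were not tested.

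The sexes were compared because the study set male beside female mice. No receptor gene differed between them by the test across all genes. Gria3, an AMPA subunit gene on chromosome X, had 46.3, 54.3 and 54.1 CPM in the females and 23.0, 28.1 and 33.6 CPM in the males. Each female lay above each male, and the log2 difference of males from females was -0.84 ± 0.32 (SE; edgeR quasi-likelihood test, adjusted p = 1.00, unadjusted p = 0.0251). Grin1 was the other gene without overlap, at 164, 109 and 115 CPM in the females and 106, 99.2 and 98.1 CPM in the males. Its log2 difference was -0.35 ± 0.27 (adjusted p = 1.00). Such a split was seen in 2 of the 29 receptor genes tested, both higher in females, and in 8.54% of all 6769 genes tested. By edgeR 0 of the 29 passed at 0.05 after adjustment (0.0% of all genes did) and 1 had an unadjusted p under 0.05, while DESeq2 gave 0 and 0. Over all genes edgeR passed 0 with 166 unadjusted, and DESeq2 passed 4 with 83 unadjusted. After Gria3, the next smallest p belonged to Gria2 (log2 difference -0.59 ± 0.35), which overlapped between the sexes. The median log2 difference was -0.09 over the 29 receptor genes and -0.03 over all genes. The summed glutamate receptor genes stood at 1302, 1232 and 1445 CPM in the females and at 1173, 1007 and 1141 CPM in the males. That gap reached the smallest p an exact permutation test of 3 against 3 mice can give (0.1), as did the share of glutamate receptors among all 41 genes (50.9% to 56.2% in females, 44.9% to 49.6% in males). The share is taken from the same sum, so it is not a separate result. Of the other receptor sums only the ionotropic glutamate receptors, a part of it, reached 0.1. The other sums gave 0.2 to 1.0 in this test. Summed kainate genes stood at 139, 157 and 145 CPM in the females and 155, 152 and 168 CPM in the males. The share of Gria3 in the AMPA counts also reached 0.1, lower in males. So did the share of neurons with a kainate gene count, higher in males unthinned and thinned. In thinned neurons those for AMPA and metabotropic genes reached it too, lower in males. No adjustment was made for the number of sums and shares tested.

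Neurons with genes of GABA synthesis or transport (Gad1, Gad2 or Slc32a1) and no Slc17a6 were few. They numbered 26, against 353 neurons with Slc17a6 and none of the GABA genes, while 54 had both kinds and 83 neither, the last at a median of 2668 counts. Female 2, male 1 and male 2 had at least 5 cells of each kind and entered the fit. Gabbr1 had 97.1, 134 and 279 CPM in the GABA-gene neurons of these mice and 257, 239 and 315 CPM in the Slc17a6 neurons. It was lower in 3 of 3 mice, with a log2 difference of -0.60 ± 0.38 (SE) and an adjusted p of 0.766. Grin2b (0.31 ± 0.35, adjusted p = 0.910) and Gabrb1 (-0.38 ± 0.48, adjusted p = 0.927) came next. For Gabrb1 the mean CPM ran the other way (224 against 187), since male 1 had 38.2 CPM and female 2 had 388 CPM in the GABA-gene neurons. In all, 4 receptor genes had enough counts to be tested and 0 passed in edgeR, with 0 at an unadjusted p under 0.05 and 0 in DESeq2. Of all 1287 genes tested 1.4% passed. The 4 genes left 37 untested, so little can be said of receptors in the GABA-gene neurons at this depth.

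Markers then divided the remaining 490 neurons, of which each comparison set those with a count of the marker against those without in the same mouse. The markers were factors of the nucleus (Nr5a1, Fezf1, Sox14, Nfib, Bcl11b, Esr1), peptide genes (Tac1, Pdyn, Sst, Cartpt, Adcyap1, Pomc), the cell cycle regulator Rprm and the filament gene Nefm. For 12 of 14 markers at least 3 mice had 5 cells on each side, and Nfib had 4 such mice. This gave 200 pairs of a receptor gene and a marker, over 21 of the 41 genes. In 3 comparisons a receptor gene passed, and in each it was Gabra5, higher with the marker. DESeq2 passed 0 of the 200. Of all genes tested, 0.206% (Rprm) to 2.42% (Bcl11b) passed in edgeR, depending on the marker. At an unadjusted p under 0.05 edgeR had 26 pairs and DESeq2 had 12. Over all genes, edgeR counts at that limit ran from 140 of 2356 (Cartpt) to 480 of 4428 (Nefm). Those of DESeq2 ran from 58 of 3055 (Sst) to 226 of 4099 (Pdyn). Whether receptor genes differed from all genes in these shares was not tested.

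**Figure D3:**
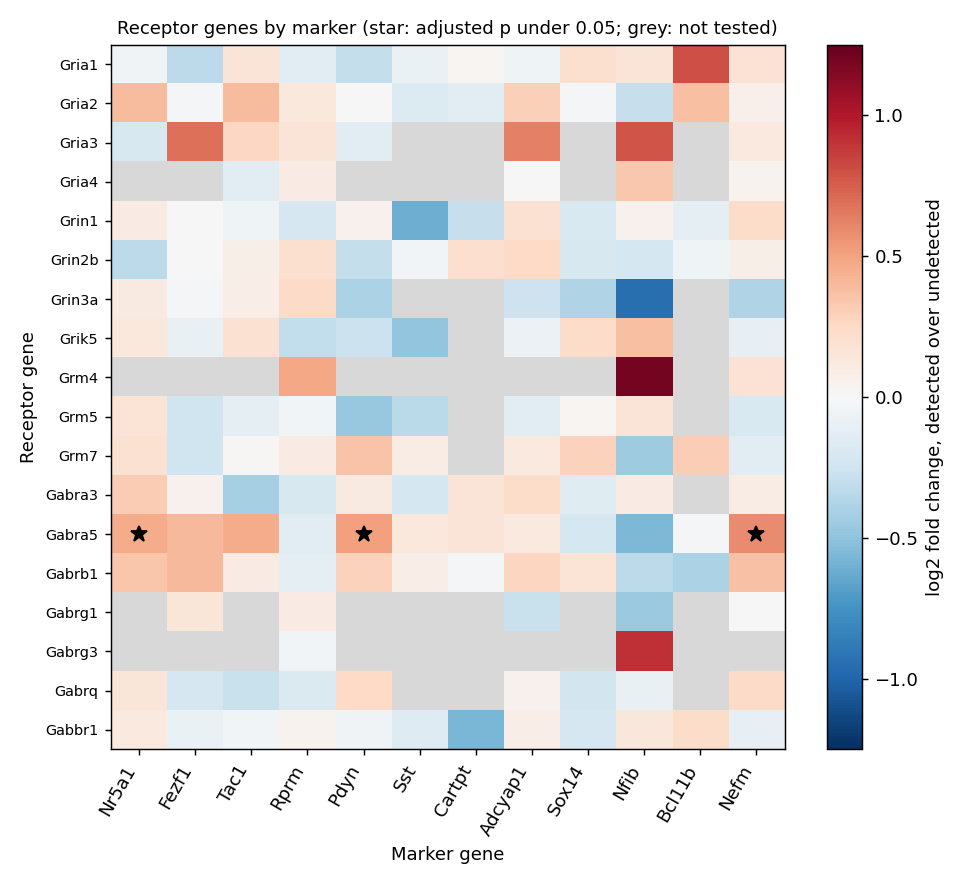
Log2 fold change of the tested receptor genes reported here (rows) in neurons with a count of the marker over neurons without (columns), from the edgeR fits with mouse as block. Grey cells were not tested, and stars mark an adjusted p under 0.05. All 3 stars are in the Gabra5 row, under Nr5a1, Pdyn and Nefm.

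Gabra5 rose with Nefm, the gene of the medium neurofilament. In females 1 to 3 it had 136, 74.9 and 318 CPM with Nefm and 134, 58.0 and 169 CPM without, and in males 1 to 3 it had 244, 139.8 and 347 CPM with Nefm and 169, 122 and 205 CPM without. It was higher with Nefm in 6 of 6 mice, by very little in female 1, and the 2 sides overlapped between mice. The log2 difference was 0.59 ± 0.12 (SE), with an adjusted p of 0.00274 in edgeR. Of 20 receptor genes tested 1 passed, against 1.6% of all 4428 genes and 1.08% of genes in this direction. DESeq2 did not call it (adjusted p = 0.426), and over 14 alternatives the adjusted p ranged from 0.00128 to 1.00. Without female 3 it was 0.0686 and without male 3 it was 0.0886.

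With Pdyn, the gene of the dynorphin opioid peptides, Gabra5 rose in the same way. Females 1 to 3 had 150.5, 85.4 and 337 CPM with Pdyn and 115, 59.8 and 178 CPM without. Males 1 to 3 had 224, 129.5 and 299.6 CPM with Pdyn and 184, 128 and 195 CPM without. The gene was higher with Pdyn in 6 of 6 mice, though male 2 differed little and the sides overlapped between mice. The log2 difference was 0.51 ± 0.13 (adjusted p = 0.0147, edgeR), and 1 of 17 receptor genes passed, against 1.59% of all genes and 0.976% of genes in this direction. DESeq2 gave an adjusted p of 0.349. The adjusted p was 0.265 without female 3 and 0.126 without male 3, within a range of 0.00558 to 0.999 over 15 alternatives.

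With Nr5a1 itself, Gabra5 had 157, 86.0 and 315 CPM in females 1 to 3 and 241, 151 and 323 CPM in males 1 to 3, against 107, 59.7 and 213 CPM and 194, 112 and 231 CPM in neurons without a count of it. Each mouse was higher with Nr5a1, and again the sides overlapped between mice. The log2 difference was 0.46 ± 0.12 (adjusted p = 0.0388, edgeR), and 1 of 17 receptor genes passed, against 0.948% of all genes and 0.632% of genes in this direction. This call was lost when any of the 6 mice was left out (adjusted p 0.0515 to 0.237) and in DESeq2 (0.362). Over 16 alternatives the adjusted p ranged from 0.0370 to 1.00. With at least 2 counts asked of Nr5a1, which dropped female 2, the log2 difference was 0.17. In that setting, neurons with fewer counts of the marker stood on the undetected side.

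**Figure D4:**
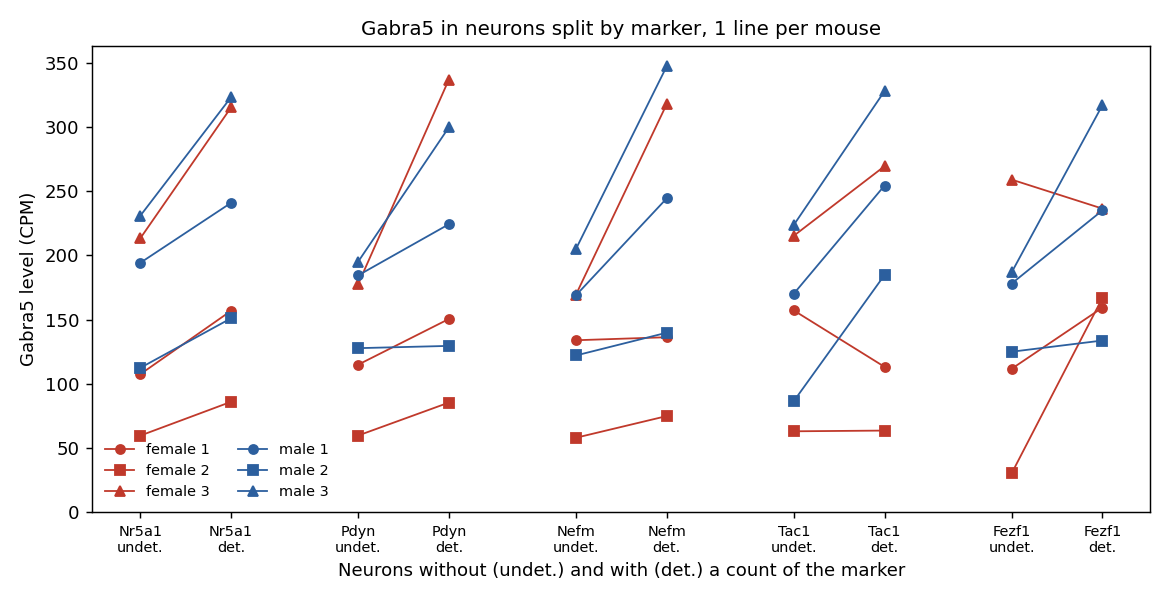
Level of Gabra5 in CPM in neurons without and with a count of each of 5 markers, 1 line per mouse, females in red and males in blue. The lines rise in 6 of 6 mice for Nr5a1, Pdyn and Nefm, and in 5 of 6 for Tac1 and Fezf1, whose adjusted p did not pass.

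The 3 comparisons are not independent, since many neurons had several of the markers. Of 153 neurons with Nr5a1 and 217 with Pdyn, 90 had both (58.8% and 41.5%), and 99 had both Pdyn and Nefm. Neurons with none, 1, 2 and 3 of Nr5a1, Pdyn and Nefm numbered 151, 186, 101 and 52. Gabra5 averaged 121 ± 38.7, 148 ± 67.6, 238 ± 111 and 270.3 ± 110.3 CPM in them, the last over 5 mice since female 2 had no such neuron. The means also went up for Gabrb1 (169, 204, 271 and 281 CPM) and Gabra3 (65.8, 79.9, 89.3 and 103 CPM), but not in order for Gria2 and Grin2b. The groups differed in depth too, with medians of 4350, 5874.5, 6949 and 9574.5 counts per neuron. These were chosen after their values were seen and were not tested. Neurons with a marker were also deeper, with a median of 7690.5 against 5166.5 counts for Nefm, 7198 against 5143 for Pdyn and 6774 against 5468 for Nr5a1. In neurons at or above the median depth only, the log2 differences of Gabra5 were 0.44 for each of the 3 markers, and none passed (adjusted p 0.160 to 0.280). Female 2 had no neuron in these fits, which held 5 mice. With counts thinned and the marker read from all counts, the log2 differences were 0.61 for Nr5a1, again without female 2, and 0.56 for Pdyn, also without passing. With Nefm, Gabra5 was below the filter in that setting and had no value. The direction was the same in the fits that gave a value, which held fewer counts, and no call was made.

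Other receptor genes did not pass with these 3 markers. With Nefm, Gabrb1 had a log2 difference of 0.37 (adjusted p = 0.118, 0.0392 without female 1). That difference turned to -0.23 in thinned cells, with the marker read from thinned counts, and kept its sign in the other alternatives. With Nr5a1, Gria2 (0.40, adjusted p = 0.113) and Gabrb1 (0.34, 0.156) were each higher in 6 of 6 mice. With Pdyn, Grm5 was lower in 6 of 6 mice, at 60.1 ± 9.73 against 84.4 ± 11.8 CPM (-0.48, adjusted p = 0.319), and Grin2b was lower in 5 of 6 (-0.30, 0.276).

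The factor Fezf1 and the tachykinin gene Tac1 gave the next smallest values. With Tac1 0 of 18 receptor genes passed, where 0.696% of all genes did (0.395% in the direction of the marker). Gabra5 was higher in 5 of 6 mice, female 1 being the exception (log2 difference 0.47, adjusted p = 0.0798, and 0.0104 without female 1), followed by Gria2 (0.40, 0.198) and Gabra3 (-0.41, 0.568). With Fezf1 0 of 18 passed, where 1.55% of all genes did (0.845% in the direction of the marker). Gabrb1 had 259 ± 54.8 CPM with Fezf1 and 181 ± 43.0 CPM without (0.40, adjusted p = 0.106), higher in each mouse but male 2. It passed without male 1 (0.0476) or male 2 (0.0197). Gabra5 (0.41, 0.178) and Gria3 (0.69, 0.387) followed. In thinned cells, where Fezf1 too was read from the thinned counts, the differences turned to -0.21 for Gabrb1 and -0.30 for Gabra5. With Fezf1 read from all counts, thinned Gabra5 kept its direction (0.51, adjusted p = 0.409), as did Gabrb1. For each gene the sign turned in 1 of 16 alternatives. Both comparisons share many neurons with the 3 above.

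Bcl11b, a factor present in 51 of the neurons, went with a wide difference in Gria1 that did not pass. Gria1 had 268, 78.8 and 70.4 CPM in females 1 to 3 with Bcl11b and 448, 162 and 223 CPM in the males, against 102 to 161 CPM without it. The log2 difference was 0.80 ± 0.26 (adjusted p = 0.107), and it was higher in 4 of 6 mice, while over 12 alternatives the adjusted p ranged from 0.00698 to 0.869. Gria2 (0.38, 0.609) and Gabrb1 (-0.40, 0.637) came next, and 0 of 10 genes passed, where 2.42% of all genes did. The spread between the mice with Bcl11b was as large as the difference.

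Cartpt and Sst, peptide genes of smaller sets of neurons, went with lower levels of 2 widely used subunits, without passing. With Cartpt, Gabbr1 was lower in 6 of 6 mice, at 164 ± 65.7 against 251 ± 53.5 CPM (log2 difference -0.57, adjusted p = 0.423). Grin2b (0.21, 0.974) and Grin1 (-0.29, 0.974) followed, and 0 of 10 passed (0.297% of all genes). With Sst, Grin1 was lower in 6 of 6 mice, at 79.1 ± 39.4 against 126 ± 22.3 CPM (-0.61, adjusted p = 0.545). Grik5 (-0.49, 0.902) and Grm5 (-0.34, 0.975) followed, and 0 of 13 passed (0.229% of all genes). Cartpt was counted in 55 neurons and Sst in 93, which limits what either fit can show.

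The last 4 markers gave no pair near the threshold. Nfib was fitted in 4 mice, with 10 neurons with a count of it in female 3 and 8, 5 and 6 in males 1 to 3. With Nfib, Grm4 (log2 difference 1.20, adjusted p = 0.451), Gabra5 (-0.56, 0.485) and Gabrg3 (0.91, 0.665) had the smallest p, and 0 of 21 passed (1.2% of all genes). With Adcyap1, the gene of the peptide PACAP, they were Gria2 (0.29, 0.433), Gria3 (0.63, 0.492) and Gabrb1 (0.26, 0.532), and 0 of 19 passed (0.975%). With Sox14, a factor of a subset of these neurons, they were Gabbr1 (-0.21, 0.908), Gabra5 (-0.22, 0.925) and Grin2b (-0.20, 0.931), and 0 of 16 passed (0.597%). Gabra5 was thus lower with Nfib in 4 of 4 mice and with Sox14 in 4 of 6, against its direction in the first 3 comparisons, by values that did not pass. With Rprm, Grm4 (0.48, 0.897) and Grin2b (0.20, 0.920) were each higher in 5 of 6 mice, and 0 of 21 passed (0.206%). Over the 12 markers the median log2 difference of the receptor genes tested ran from -0.09 (Sst) to 0.15 (Nr5a1), and that of all genes from -0.05 to 0.01.

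Subunit shares were also compared within families, where gene length plays no part. Of 302 shares with at least 20 family counts on each side in at least 5 mice, 0 passed an exact sign-flip test after adjustment (smallest adjusted p = 0.821), and 2 had an unadjusted p under 0.05. Gria3 made up 12.9% ± 4.85 of the AMPA counts with Fezf1 and 7.38% ± 1.52 without, higher in 6 of 6 mice (exact p = 0.03125). Gria1 made up 33.6% ± 8.51 with Rprm and 37.7% ± 9.08 without, lower in 6 of 6 mice (exact p = 0.03125). This p is the smallest that 6 mice can give. Leaving out any mouse but female 2 cut the 302 shares to 36 to 40, while leaving out female 2 kept all 302. Most shares therefore rested on the 5 other mice, where the smallest possible exact p is above 0.05. No share could pass after adjustment over 302, so that none passed says nothing of subunit makeup by marker.

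A list of 54 related genes held auxiliary subunits, scaffolds, glycine receptors, chloride carriers and transporters. Of these 33 were tested for sex and 0 passed in edgeR. Glra1, a glycine receptor subunit gene, rose with Pdyn, Nefm and Fezf1. With Nefm it had 122, 0 and 92.2 CPM in females 1 to 3 and 78.8, 16.1 and 112.5 CPM in males 1 to 3, against 69.3, 16.6 and 36.0 CPM and 57.2, 6.26 and 29.6 CPM without. It was higher in each mouse but female 2, and the log2 difference was 1.09 ± 0.24 (adjusted p = 0.00494). This call was lost without male 3 (0.209), in DESeq2 (0.337) and in deep neurons (0.223), and no value was had without male 1. With Pdyn the log2 difference was 1.13 ± 0.27 (adjusted p = 0.00921, lost without male 1 or male 3, and the gene was below the filter without female 1 or female 3). The Pdyn call was also lost with at least 2 counts of the marker (0.162) and in deep neurons (0.217). With Fezf1 the log2 difference was 0.95 ± 0.25 (0.0256, lost without female 1, female 3 or male 3, with no value without male 1). The Fezf1 call was also lost in DESeq2 (0.603), with at least 2 counts of the marker (0.146) and in deep neurons (0.163). Without mouse in the model none of the 3 Glra1 calls held. Cnih3, a cornichon protein that accompanies AMPA receptors, rose with Tac1 by 1.15 ± 0.24 on the log2 scale (76.1 ± 41.8 against 41.7 ± 18.0 CPM, higher in 5 of 6 mice). Its adjusted p was 0.00288, and the call was lost without male 1 (0.175), in DESeq2 (0.586), with at least 2 counts of the marker (0.118) and without mouse in the model (1.00). Olfm1, a secreted protein that binds AMPA receptor complexes, fell with Pdyn. It had 368, 214 and 275 CPM in females 1 to 3 with Pdyn and 514, 405 and 438 CPM without, and 357, 447 and 332 CPM in males 1 to 3 with Pdyn and 546, 605 and 398 CPM without. Each mouse was lower with Pdyn, with a log2 difference of -0.50 ± 0.10 (adjusted p = 0.000848), and the call held in DESeq2 (0.00644) and with each mouse left out (0.000595 to 0.0144), but not in thinned cells (0.671), in thinned cells with markers from all counts (0.195) or without mouse in the model (0.999). No other gene of the list passed with a marker, and in the comparison of GABA-gene neurons only Slc17a6 did, which had defined the groups.

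Esr1 and Pomc could not be fitted, since 2 mice and 1 mouse had 5 cells on each side. Esr1, the oestrogen receptor alpha gene that the study's title names, had a count in 25 neurons, 11 of them from female 3. Pooled over mice, Gria1 stood at 281 CPM in these (44 counts, exact Poisson interval 204 to 378 CPM) and at 133.5 CPM in the others, and 20 of the 44 counts came from female 3. Gria2 was also higher with Esr1, at 345 CPM (259 to 450.5) against 184.9 CPM, and 44 of its 54 counts came from female 3. Gabrb1 stood at 313 CPM (232 to 414) against 220 CPM, with 32 of its 49 counts from female 3. Gabra5 went the other way, at 159.8 CPM (103 to 236) against 199.6 CPM. None of these was tested. The intervals cover counting error only, and the mice were unequally represented. Pomc, a gene of arcuate neurons, had at least 10 counts in 11 neurons, none of them from females 1 and 2. Gabre had 9 counts in 5 of these 11 neurons (45.5%, exact 95% interval 16.8% to 76.6%) and a count in 7.31% of the 479 others (5.14% to 10.0%). This gene was singled out after its values were seen, and it was not tested.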

How the data were processed

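The deposited tables hold raw counts for each gene in each well, and the submitters' processing notes name HTSeq and mm10. Dissociation with papain and BD Precise library construction are per the labels' protocols. The aligner, the annotation, the strand, and whether a count is a read or a molecule are not stated in the sources used here.

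Counts of neuron-like wells were summed by mouse, or by mouse and marker side. The sums went into edgeR (version 4.0.16, quasi-likelihood test with TMM factors and filterByExpr), with p adjusted by Benjamini-Hochberg over every tested gene and mouse as block within mice. DESeq2 1.42.0, exact permutation tests and 35 alternatives were run, and 4 further ones were chosen after seeing the data. Scripts were tested on simulated counts. Exon lengths came from GENCODE vM21. Members and lists were chosen with earlier results of these data known. Genes named had a mean of at least 20 CPM, an adjusted p under 0.05, or one of the 3 smallest p where none passed, and a few below 20 CPM were named after their values were seen. Some genes of the set enter sums and counts but are not reported here by name. Intervals and floors cover counting error only.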

Additional observations from a re-analysis of the deposited data

Results flagged for a closer look

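For 3 of the pairs of receptor gene and marker reported here, every female moved one way and every male the other. They came from the 200 pairs tested, less those of Nfib, which was fitted in 4 mice. The share of all genes with such a split was not counted, so these pairs are a description only. The difference between the sexes was not tested. Gria3 differed between Pdyn-detected and undetected neurons by 33.5 CPM in females and by -13.8 CPM in males on average. Grm7 differed with Sst by -41.6 CPM in females and by 21.5 CPM in males. Gabra5 differed with Cartpt by -60.8 CPM in females and by 74.9 CPM in males, and in female 2 it had no count in Cartpt neurons. None of the 3 passed in the fit over both sexes.

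Grm3, a metabotropic receptor gene known from astrocytes, had 5 counts in 4 of the 14 kept wells that were not neuron-like (382 CPM), above the limit of 3 counts, and 7 counts in 7 of 516 neurons (2.12 CPM). Of these 14 wells 10 came from female 1, and astrocyte genes led the counts of the listed cell types in 8 of them.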

How the results depend on the processing

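Fewer counts, fewer cells and 1 shallow library limit these data. Pairs of a receptor gene and a marker that passed numbered 3, and 5 with the GABA-gene neurons included or with no filter on low counts, 0 in DESeq2, without mouse in the model, in deep neurons, in thinned cells and in thinned cells with markers from all counts, and 0 to 4 when a mouse was left out. In thinned cells Gabra5 was below the filter with Nefm and Pdyn, so it was not tested there. With markers from all counts it was below the filter with Nefm. Pairs of any gene and a marker that passed numbered 463 over the 12 markers, 134 in DESeq2, 1164 with no filter, 34 without mouse in the model, 138 in deep neurons, 48 in thinned cells and 107 in thinned cells with markers from all counts, and 311 to 435 with a mouse left out. The number of comparisons that could be fitted fell to 10 with 2 counts of the marker, in thinned cells and in deep neurons. No neuron of female 2 entered the fits of deep neurons. Genes tested per marker numbered 2146 to 4428 in the main fits, 14816 to 15077 with no filter and 836 to 1625 in thinned cells. The numbers that passed are therefore not comparable as shares. For sex, 0 receptor genes passed in the 13 alternatives, and all genes that passed numbered 4 in DESeq2, 24 with no filter, and 0 to 3 with a mouse left out. In the comparison of GABA-gene neurons 0 receptor genes passed throughout, and all genes went from 18 to 4 in DESeq2, 6 with 2 counts, 37 with mice of 2 cells, 51 with no filter, 0 without the mouse block, 4 in thinned cells, and 9 to 29 with a mouse left out. Shares within families gave 0 throughout. With all mice no share could pass after adjustment, and with a mouse left out no exact p could pass.

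In thinned cells, with the marker also read from thinned counts, the sign turned for Gabra5 and Gabrb1 with Fezf1 (-0.30 and -0.21) and Gabrb1 with Nefm (-0.23). Each of these kept its sign in thinned cells with markers from all counts. The sign also turned for Grin2b in GABA-gene neurons with 2 counts (-0.20) or no filter (-0.19). Gabrb1 there turned to 0.49 without male 1, and was -0.91 without male 2. The sex difference in genes per neuron turned from 2 to -0.5 in thinned cells and to -0.167 without female 2, within -0.167 to 3.33 over mice left out. Without length scaling, Gria1 minus Gria2 turned to -52.6 CPM and Grin1 minus Grin2b to -92.5 CPM. The cause was not tested in any of these. Mean levels of the 27 named genes moved by over 1 SD for 1 gene, in the mean of CPM per cell. No pairing of the sexes by the replicate numbers of the labels was seen. Same-number correlations were -0.128, -0.0852 and 0.158, and those of unlike numbers ran from -0.0985 to 0.205. With so few mice these values cannot settle whether the numbers were pairs. With the replicate block 0 genes passed for sex.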
